A study of Schizosaccharomyces pombe with 30 samples.

Results

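The core histone genes of fission yeast encode the proteins H3, H4, H2A and H2B, around which DNA is wrapped in the nucleosome. The 9 genes described here, *hht1*, *hht2*, *hht3* (H3), *hhf1*, *hhf2*, *hhf3* (H4), *hta1*, *hta2* (H2A) and *htb1* (H2B), were taken by symbol from the RefSeq annotation of the assembly ASM294v3, out of 5113 nuclear protein-coding genes. For each gene, Seb1 crosslink sites on the coding strand were counted from the annotated transcription start site (TSS) to 250 nt after the annotated 3′ end of the transcript. All 9 genes held at least 1 site, and together they held 39 of the 15789 nuclear sites in the list.

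Seb1 is a protein with a domain that binds the C-terminal domain of Pol II and another that binds RNA, and the study examined its part in transcription termination. Sites came from 1 PAR-CLIP library of *S. pombe* cells of genotype h-, seb1::seb1-TAP::KanMX, in which Seb1 carries a TAP tag, and were normalized by the authors with 1 RNA-Seq library of untagged WT cells of genotype h-. Both cultures were kept at 30 °C in CSM minimal medium, to which uracil (10 mg per litre), glucose (4%) and 4-thiouracil (100 μM) had been added, received another 900 μM 4-thiouracil for 4 h and, per the labels, were irradiated with 12 J per cm2 at 365 nm. For the RNA-Seq culture the study's methods give a lower UV dose than its label does, and which of them applied is not settled here. There is no second PAR-CLIP library, no untagged control for it and no other condition, so no test between samples was possible, and intervals below cover counting error only. The labels mention no synchronization of the cells, while most histone mRNAs are known to be made mainly in S phase.

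As background, fission yeast keeps its H3 and H4 genes as 3 divergent pairs and *hta1* and *htb1* as another, while *hta2* stands alone. For most of these genes, though not for all alike, transcription is tied to S phase, in part through the GATA factor Ams2. Unlike most histone mRNAs of animals, which end in a stem-loop, yeast histone mRNAs are cleaved and polyadenylated like other mRNAs, so their 3′ ends are made by the machinery with which Seb1 is associated. The motif given for Seb1 in the study is UGUA, written TGTA in the DNA letters below.

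The sites that carry most of the following description are shown with 29 nt of the transcribed strand, 5′ to 3′, from the RefSeq sequence of ASM294v3, with the crosslinked T at base 15. Capitals mark TGTA, or, where the 29 nt hold none, the crosslinked T alone. The first set shows *hhf2*, which had the strongest sites on either side of its coding sequence, the second the 3′ regions of the other genes, the third the 5′ ends, and the fourth a pair of H4 copies with nearly the same sequence.
hhf2 5′ UTR, chrII:1364873-1364901, minus strand: attagtttttgatatTGTAaattgatcaa
hhf2 after the 3′ end, chrII:1364007-1364035, minus strand: actctacaagctgatTGTAaggtaaatgt
hhf2 after the 3′ end, chrII:1363995-1364023, minus strand: gatTGTAaggtaaaTGTActgaaagcaag
hht1 3′ UTR, chrI:4700516-4700544, plus strand: tttagataacacattaTGTAcattaatga
hta1 3′ UTR, chrIII:1411157-1411185, minus strand: ataatatTGTAtagtaatgagtatatttt
htb1 3′ UTR, chrIII:1413598-1413626, plus strand: agatTGTAaagtaattctactattaataa
hta2 after the 3′ end, chrI:4052357-4052385, minus strand: taaactttttgaggtgctTGTAgcaTGTA
hhf1 3′ UTR, chrI:4698823-4698851, minus strand: gtttctttTGTAggtgatattattttttg
hhf3 after the 3′ end, chrII:3530399-3530427, plus strand: atatttataagtagTacaaatatagtaaa
htb1 5′ UTR, chrIII:1412361-1412389, plus strand: ttaataccaacaacTtgatattgcacgaa
hht3 start codon, chrII:3529514-3529542, minus strand: acactagaaaataaTggctcgtactaagc
hhf1 coding, chrI:4699243-4699271, minus strand: tggtgtgaagcgtaTttccgctttggttt
hhf3 coding, chrII:3529900-3529928, plus strand: agcgtatttccgctTtagtttacgaagag

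For each site the authors gave the number of reads that cover it, the number of these with the T-to-C transition that marks a crosslink, and an occupancy. The list rests on a median of 13 reads and 2 transitions per site. The 39 histone sites had 13 to 92 reads, with a median of 36, and 2 to 14 transitions, with a median of 3. In all, 159 of 1568 reads (10.1%) carried the transition; a read that spans several sites counts at each. Of the 39 sites, 21 lay within 25 nt of another site of the same gene, so that such sites can share reads, and counting each run of sites once left 27 separate stretches. Of the 9 genes, 9 held a site, where 67.3% of all protein-coding genes did. Since every histone site had at least the median read coverage, all 9 genes also held a site of that coverage, whereas only 1919 protein-coding genes (37.5%) did. At least 3 sites were found on 8 of the 9 genes and on 31.9% of all protein-coding genes. The median RNA-Seq coverage was 458 reads at the histone sites, against 69 reads at the sites of all other protein-coding genes. It was 171.5 at sites of cytoplasmic ribosomal protein genes and 118 at those of other protein-coding genes no longer than *htb1*. By histone gene the coverage ran from 23 reads at the single site of *hht2* to a median of 2608.5 at the sites of *hht1*. The part of RNA-Seq coverage in the number of sites was not tested.

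**Figure D1:**
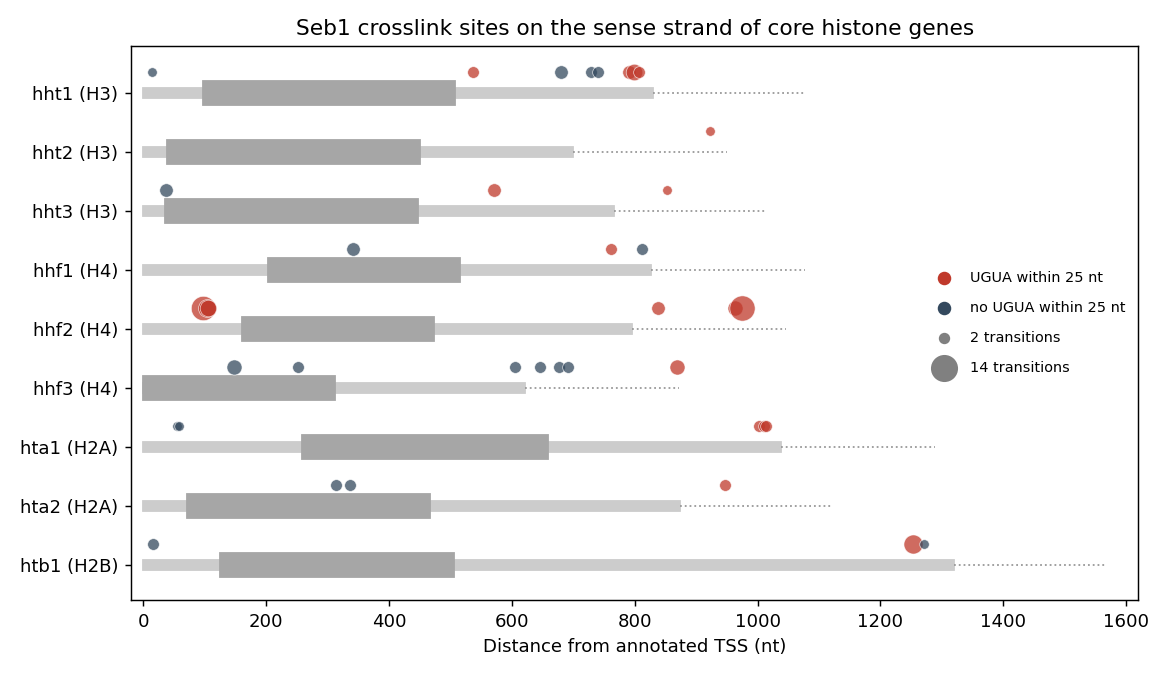
Sense crosslink sites on the 9 histone genes. The x axis is the distance from the annotated TSS in nt, thick boxes are coding sequences, thin boxes UTRs and dotted lines the 250 nt after the annotated 3′ end. Each point is a site, its area proportional to its transitions and its colour showing whether UGUA lies within 25 nt. The 2 largest points, with 13 and 14 transitions, are at the 5′ and the 3′ side of *hhf2*, and *hht2* has a single site.

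The H4 genes held 16 of the 39 sites, at 5.34 sites per kb of window. *hhf2* (SPBC8D2.03C, chromosome II, 1364189 to 1364984, minus strand) had 6 sites, 3 in the 5′ UTR and 3 after the annotated 3′ end, and none in the coding sequence or the 3′ UTR. The 5′ UTR sites lay 97, 104 and 105 nt after the TSS, with 13 transitions in 56 reads, 7 in 58 and 6 in 59. After the 3′ end, sites at 42, 168 and 180 nt had 4 transitions in 58 reads, 5 in 30 and 14 in 47. The last of these was the site with the most transitions of all 39 and also had the highest share of transitions, 29.8% (exact Clopper-Pearson interval 17.3 to 44.9%). It is the third sequence of the first set, in which the crosslinked base is the first T of TGTA. All 6 sites had UGUA within 25 nt. *hhf2* took 49 of the 159 transitions at histone sites. The 3 sites after its 3′ end also lie inside the annotated lncRNA gene SPNCRNA.1432 on the same strand (1363471 to 1364267), so their transcript of origin cannot be told apart.

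*hhf3* (SPBC1105.12, chromosome II, 3529767 to 3530388, plus strand) had 7 sites with 3 to 5 transitions each. Of these, 2 lay in the coding sequence, 1 in the 3′ UTR, 16 nt before the annotated 3′ end, and 4 after it, at 25, 55, 70 and 247 nt. These 4 had 3 transitions in 42 reads, 3 in 29, 3 in 45 and 5 in 63. In contrast to *hhf2*, UGUA lay near only 1 of the 7 sites of *hhf3*, the one at 247 nt, although another 4 of its sites had GUAA within 25 nt. The annotation gives *hhf3* no 5′ UTR, its TSS being the first base of the start codon. Just outside the window, 2 further sites lay 19 and 32 nt before this base, with 6 transitions in 106 reads and 3 in 43.

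*hhf1* (SPAC1834.03C, chromosome I, 4698773 to 4699599, minus strand) had 3 sites, 1 in the coding sequence with 4 transitions in 83 reads and 2 in the 3′ UTR, 64 and 14 nt before the 3′ end, each with 3 transitions, in 30 and 24 reads. None lay within 250 nt after the 3′ end, where the sequence has 4 UGUA. *aro1*, for a multifunctional enzyme of aromatic amino acid synthesis, converges on *hhf1* from the other strand, and 2 sites with 3 and 2 transitions lay on that strand within the *hhf1* window.

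The H3 genes held 12 sites. *hht1* (SPAC1834.04, chromosome I, 4699732 to 4700560, plus strand) had 8, the most of any histone gene, a number that 252 protein-coding genes (4.93%) reach or exceed. Of these, 7 lay in the 3′ UTR, at 29 to 300 nt after the stop codon, the last of them 21 nt before the annotated 3′ end. The site 30 nt before the end had 6 transitions in 67 reads, and sites 38 and 21 nt before it had 4 in 71 and 3 in 36. These 3 sites surround 1 UGUA. A site 14 nt after the TSS had 2 transitions in 13 reads. From 1 to 250 nt after the 3′ end *hht1* had neither a site nor a UGUA, but a further 5 sites on its strand lay beyond the window, from 293 to 463 nt after the 3′ end, with 5 to 8 transitions in 46 to 99 reads. These 5 sites lie in no annotated gene of that strand. Each of them had more transitions than at least 7 of the 8 sites inside the window.

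*hht2* (SPBC8D2.04, chromosome II, 1365119 to 1365818, plus strand), the partner of *hhf2*, had a single site, 223 nt after its 3′ end, with 2 transitions in 16 reads. It lies inside the lncRNA gene SPNCRNA.5148 on the same strand (1365849 to 1367362). Between the TSS and the 3′ end of *hht2* no site was listed. Its window contains 7 UGUA, 4 of them after the 3′ end. At this depth, a missing site is not evidence of missing contact.

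*hht3* (SPBC1105.11C, chromosome II, 3528800 to 3529565, minus strand) had 3 sites. At 37 nt after the TSS the crosslinked base was the second base of the start codon, with 4 transitions in 76 reads. The others lay 194 nt before the 3′ end, with 4 transitions in 37 reads, and 88 nt after it, with 2 in 16.

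The H2A genes held 8 sites. *hta1* (SPCC622.08C, chromosome III, 1411144 to 1412181, minus strand) had 5, in 2 groups at either end of its transcript. In the 5′ UTR, sites 54 and 58 nt after the TSS had 2 transitions each, in 15 and 14 reads. In the 3′ UTR, sites 35, 27 and 24 nt before the 3′ end had 3 transitions each, in 40, 37 and 36 reads, and share 1 UGUA. *hta2* (SPAC19G12.06C, chromosome I, 4052446 to 4053318, minus strand) had 2 sites in the coding sequence and 1 after the 3′ end, at 75 nt, with 3 transitions in 45 reads. The coding sites also had 3 transitions each, in 37 and 33 reads.

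The only H2B gene, *htb1* (SPCC622.09, chromosome III, 1412359 to 1413677, plus strand), had 3 sites in a transcript with the longest 3′ UTR of the 9, 813 nt. The site 65 nt before its 3′ end had 8 transitions in 29 reads, or 27.6% (12.7 to 47.2%), which is close to the highest share at *hhf2* and lies within its interval. A site 47 nt before the end had 2 transitions in 14 reads, and a site 16 nt after the TSS had 3 in 18. The gene *sec5*, for a subunit of the exocyst, overlaps the end of *htb1* on the other strand.

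Members of a divergent pair did not hold like numbers of sites. The transcripts of *hhf1* and *hht1* start 132 nt apart and held 3 and 8 sites, those of *hhf2* and *hht2* start 134 nt apart and held 6 and 1. For *hht3* and *hhf3*, 201 nt apart, the numbers were 3 and 7, and for *hta1* and *htb1*, 177 nt apart, 5 and 3. With so few sites per gene in 1 library, these are counts of listed sites and not measured differences in binding.

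Copies of a histone gene resemble each other in the coding sequence, which bears on where a read is placed. The coding sequences of the H4 genes were 91.3 to 93.3% identical to each other and those of the H3 genes 88.3 to 92.7%. None of the 39 sites had a second exact copy of its 51 nt in the nuclear genome. For 4 sites, however, the closest other place differed at under 6 of 51 bases, and all of them are coding sites of *hhf1*, *hhf3* and *hta2*. The coding site of *hhf1* and the first coding site of *hhf3* differ from the other H4 copy at 3 bases, the second coding site of *hhf3* at 4, and 1 coding site of *hta2* differs from *hta1* at 5. The sites of *hhf1* and *hhf3* shown in the fourth set lie 139 and 147 nt after the first base of their start codons, in the same stretch of the H4 coding sequence. Whether reads were exchanged between copies at these 4 sites was not tested. At the UTR sites and those after the 3′ end, the closest other place differed at 16 or more bases.

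By place in the transcript, 7 of the 39 sites lay in 5′ UTRs, 6 in coding sequences, 16 in 3′ UTRs and 10 within 250 nt after the 3′ end. For all gene groups, coding sequence is here the whole span from start to stop codon, any introns included. The share after the 3′ end was 25.6% (13.0 to 42.1%), close to the 24.2% at all other protein-coding genes. At the other protein-coding genes no longer than *htb1* it was 40.5% (38.6 to 42.4%), and the histone interval covers 40.5%. At the 137 genes of cytoplasmic ribosomal proteins, which are also short, it was higher, at 53.7% (50.6 to 56.8%). The 250 nt after the 3′ end make up more of the window in a short gene. Median lengths were 827 nt for the histone genes, 680 nt for the ribosomal protein genes, 966 nt for the genes no longer than *htb1* and 1774 nt for all others. The share in the 3′ UTR was 41.0% (25.6 to 57.9%) at the histone genes. It was 30.7% at the ribosomal protein genes, 26.2% at the other genes no longer than *htb1* and 23.7% at all other protein-coding genes. Coding sequence made up 3345 of the 10020 nt of the histone windows, and its share of the sites there was 15.4% (5.86 to 30.5%). The share was 14.4% at the ribosomal protein genes, 29.1% at the other genes no longer than *htb1* and 44.8% at all other protein-coding genes. By gene, 6 of 9 histone genes had a site in the 3′ UTR (26.8% of all protein-coding genes did), 5 had one within 250 nt after the 3′ end (25.8%), 4 had one in the 5′ UTR (11.0%) and 4 in the coding sequence (49.2%). The last 100 nt before the annotated 3′ end alone held 13 sites, on 5 genes (13.8%). This distance was chosen after the values were seen.

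Per length, the histone windows held 3.89 sites per kb (exact Poisson interval 2.77 to 5.32), against 7.34 at the ribosomal protein genes, 1.46 at the other protein-coding genes that are no longer than *htb1*, and 0.952 at all other protein-coding genes. Both of the last groups include the ribosomal protein genes. The 5′ UTRs of the histone genes held 7.06 sites per kb (2.84 to 14.6), against 3.52 (1.82 to 6.16) at the ribosomal protein genes and 1.02 at all other protein-coding genes. This density rests on 7 sites of 4 genes in 991 nt. Of the 7, 3 lie close together on *hhf2* and 2 on *hta1*. In the 3′ UTR the density was 4.66 sites per kb (2.66 to 7.57) at the histone genes, 15.1 at the ribosomal protein genes and 1.30 (1.25 to 1.35) at all other protein-coding genes. In coding sequences it was 1.79 sites per kb (0.658 to 3.90) at the histone genes, 1.84 (1.56 to 2.17) at the ribosomal protein genes and 0.656 (0.638 to 0.675) at all other protein-coding genes. The last group nevertheless had a larger share of its sites in coding sequences than the histone genes. After the 3′ end it was 4.44 (2.13 to 8.17) at the histone genes, 15.6 at the ribosomal protein genes and 2.10 (2.02 to 2.18) at all other protein-coding genes. At the other genes no longer than *htb1* the density was 1.02 in 5′ UTRs and 0.764 in coding sequences. In the 3′ UTRs of these genes it was 2.28, and after their 3′ ends 2.74. The histone intervals cover the values for coding sequences and after the 3′ end, but not those for the UTRs. Of the 16 histone sites in 3′ UTRs, 7 were on *hht1* alone, and without this gene, left out after the values were seen, the density there was 2.89 sites per kb (1.32 to 5.49). This interval covers the 2.28 in 3′ UTRs of the other genes no longer than *htb1*. Differences between the gene groups were not tested, since genes of 1 library are not replicates and neighbouring sites can share reads.

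**Figure D2:**
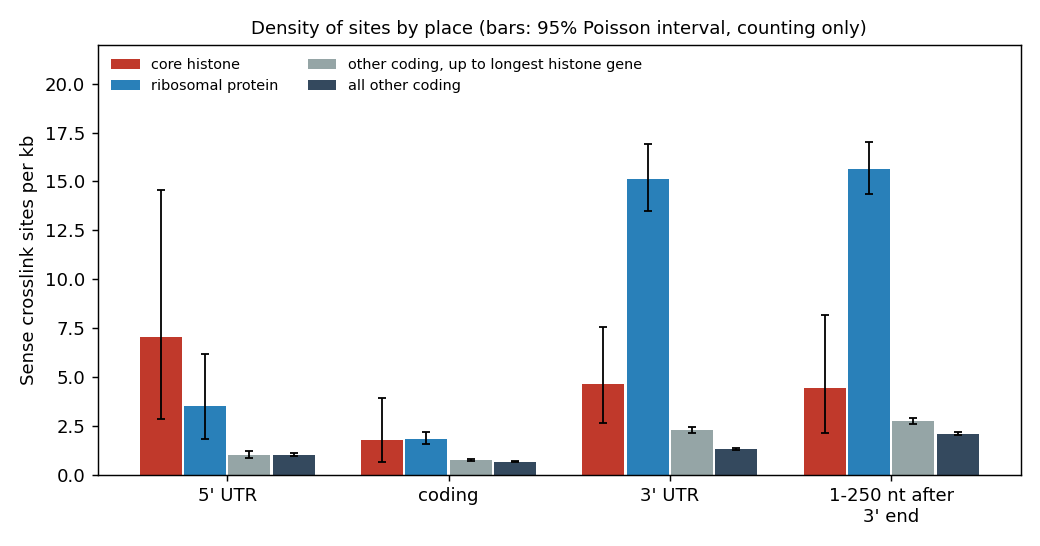
Sense crosslink sites per kb of sequence, by place in the transcript, for the core histone genes, the cytoplasmic ribosomal protein genes, the other protein-coding genes no longer than *htb1* and all other protein-coding genes. Error bars are exact 95% Poisson intervals, which cover counting error only. The histone bars stand at 7.06, 1.79, 4.66 and 4.44 sites per kb from the 5′ UTR to the region after the 3′ end, while the ribosomal protein genes reach about 15 sites per kb in the 3′ regions.

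UGUA lay within 25 nt of 20 of the 39 histone sites, or 51.3% (34.8 to 67.6%). At all nuclear sites the share was 43.4% (42.6 to 44.1%) and at all other protein-coding genes 42.7% (41.7 to 43.6%). It was 53.3% (51.3 to 55.2%) at the other genes no longer than *htb1* and 65.7% (62.7 to 68.7%) at the ribosomal protein genes. The histone interval covers all of these values. By place, UGUA lay near 7 of 10 sites after the 3′ end, 10 of 16 in 3′ UTRs and 3 of 7 in 5′ UTRs, all 3 of them at *hhf2*, but near none of the 6 coding sites. At all other protein-coding genes the shares were 62.5% after the 3′ end, 47.6% in 3′ UTRs, 40.4% in 5′ UTRs and 29.7% in coding sequences. GUAG, the reading of which can overlap UGUA by 3 bases, lay within 25 nt of 10 histone sites, and either motif near 22.

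The windows of the 9 genes contained 49 UGUA, or 4.89 per kb, against 4.23 per kb in the windows of all protein-coding genes, the histone genes included. Of the 49, 16 had a site within 25 nt, a share that was not computed for the windows of other genes. After the 3′ end UGUA was denser, at 9.33 per kb for the histone genes and 7.26 per kb for all protein-coding genes, and 8 of the 9 histone genes had at least 1 UGUA there, as did 82.6% of all protein-coding genes. *hhf2* had 7 UGUA in its window, 5 of them with a site, whereas *hht2* also had 7, and only 1 had a site. The letters AATAAA occurred on the transcribed strand in the last 50 nt of 3 histone transcripts, *hhf1*, *hhf2* and *htb1*, and in those of 16.4% of all protein-coding genes.

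Where UGUA was near, it mostly stood beside the crosslinked base and did not include it. The crosslinked base was within the nearest UGUA at 1 of the 20 sites, or 5.00% (0.127 to 24.9%), namely at *hhf2* 180 nt after the 3′ end. Among the 4726 such sites of all other protein-coding genes the share was 32.1% (30.7 to 33.4%), with the first base of the motif crosslinked at 1437 of them. At 10 histone sites UGUA began 4 to 10 nt before the crosslinked base and so ended before it, and at 7 it began 1 to 5 nt after it. UGUA in the 4 to 10 nt before the base had an interval of 27.2 to 72.8% at the histone sites, against a share of 22.1% at all other protein-coding genes. For UGUA 1 to 5 nt after it, the interval was 15.4 to 59.2% at the histone sites, against 14.5% at all other protein-coding genes. Several histone sites share 1 motif, as at *hta1*, *hht1* and the 5′ UTR of *hhf2*, so the 20 sites are not independent observations. The classes of position were chosen after the values were seen, and no test was made.

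**Figure D3:**
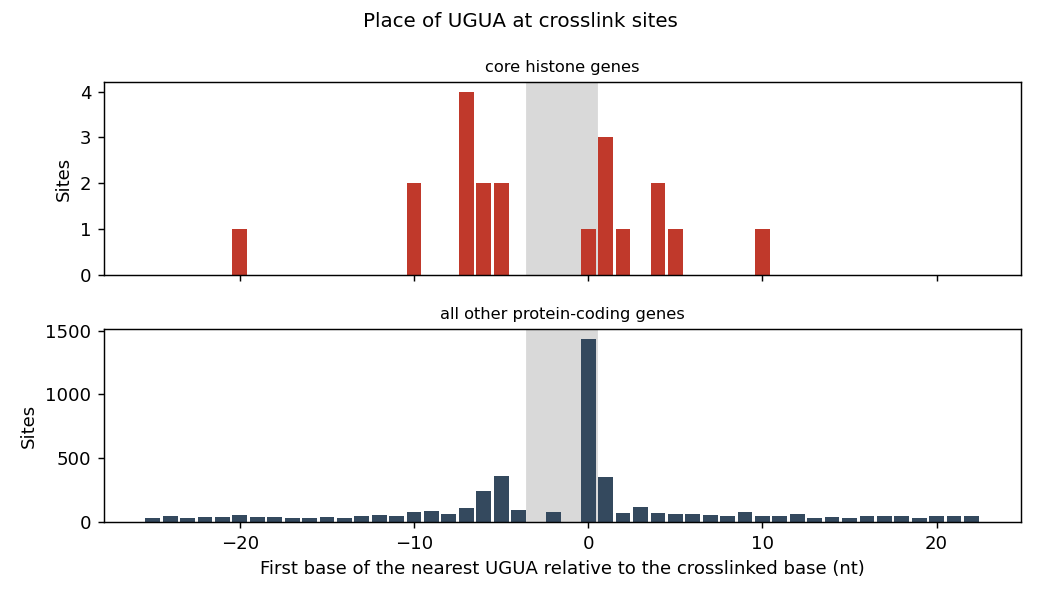
Position of the first base of the nearest UGUA relative to the crosslinked base, in nt, for the 20 histone sites with UGUA within 25 nt (upper panel) and the 4726 such sites of all other protein-coding genes (lower panel). The y axes count sites and differ in scale, and the grey band covers positions at which the crosslinked base is part of the motif. A single histone site falls in the band, against 32.1% of the sites of other genes.

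The occupancy of a site relates its transitions to a whole number, taken as the coverage of that base in the RNA-Seq library, and is at most 1. No histone site reached the maximum. Occupancies ran from 0.000942 to 0.750 with a median of 0.00915. The medians were 0.0304 at the ribosomal protein genes, 0.0307 at the other genes no longer than *htb1* and 0.0392 at all other protein-coding genes. The lowest histone occupancies were in the 3′ UTR of *hht1*, where 3 to 6 transitions stood against a coverage of 1059 to 3791 reads. After the 3′ ends occupancies were 0.0146 to 0.116, with a coverage of 23 to 250 reads, all of them above 14 of the 16 sites in 3′ UTRs. The highest occupancies were at the starts of transcripts, at 0.750 for the site 16 nt after the TSS of *htb1*, 0.364 for the start codon site of *hht3*, 0.200 for the site 54 nt after the TSS of *hta1* and 0.182 for the site 14 nt after the TSS of *hht1*. These rest on 2 to 4 transitions over a coverage of 4 reads at *htb1*, 11 at *hht3*, 10 at *hta1* and 11 at *hht1*. The 5′ UTR sites of *hhf2*, with 6 to 13 transitions, had the far higher coverage of 458 to 656 reads and occupancies of 0.00915 to 0.0284. The 4 sites of highest occupancy were thus the 4 with the lowest RNA-Seq coverage. Summed over the 39 sites, occupancy was 2.12, of which the *htb1* site near the TSS gave 0.750.

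The coverage behind the occupancy showed little dependence on strand, which bears on these genes because every one of them has an annotated gene on the other strand within its window, except *hht2*. Among 50 pairs of sites on opposite strands within 5 nt of each other, anywhere in the nuclear genome, the implied coverage differed by a median of 1.17-fold and by no more than 2-fold in 47 pairs. For 800 pairs on the same strand at the same distance the median was 1.03-fold. In the *hht1* 3′ UTR, an antisense site with 2 transitions in 12 reads implied a coverage of 3222 reads, while sense sites of this UTR implied 1059 to 3791. The part of RNA from the other strand in the occupancies of the histone sites was not tested.

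**Figure D4:**
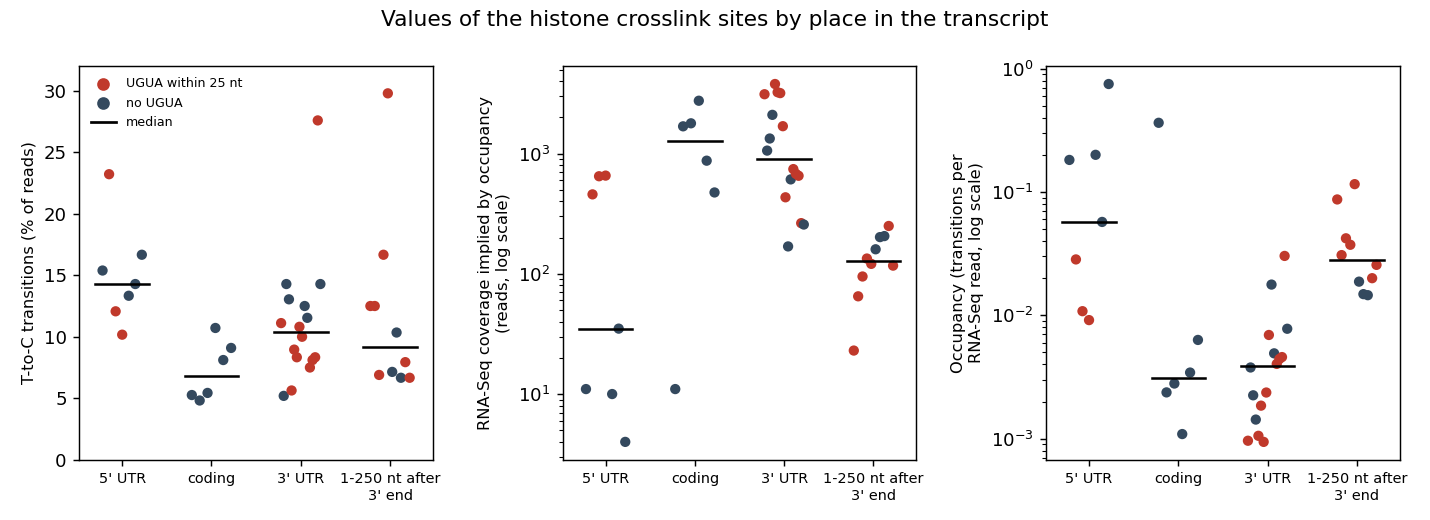
Values of the 39 histone sites by place in the transcript, each point a site and each line a median. The panels give T-to-C transitions as a percentage of reads, the RNA-Seq coverage implied by the occupancy (log scale) and the occupancy (log scale). The share of transitions overlaps between all places, with medians of 14.3% in 5′ UTRs, 6.77% in coding sequences, 10.4% in 3′ UTRs and 9.14% after the 3′ end. Coverage and occupancy run in opposite directions, which is in part built in, since coverage was obtained by dividing transitions by occupancy.

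The share of reads with the transition does not depend on the RNA-Seq library. Over the 39 sites it ran from 4.82% at the coding site of *hhf1* to 29.8% at *hhf2*, with a median of 10.3%. The median was 7.25% at the ribosomal protein genes, 13.3% at the other genes no longer than *htb1* and 18.2% at all other protein-coding genes. Sites of the last group rest on a median of 13 reads. Only 3 histone sites were above 20%, the 2 strongest of *hhf2* and the one of *htb1* 65 nt before its 3′ end. Each of these has UGUA within 10 nt of the crosslinked base, as do 46.2% of the 39 sites. A link between the motif and the share of transitions was not tested.

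Genes that work with histones were read from a list of 21, of which 15 (71.4%) held at least 1 site, close to the 67.3% of all protein-coding genes, and the median number of sites was 1. Of the histone variants, *pht1* (H2A.Z) had 1 site, with 2 transitions in the 5′ UTR, and *cnp1* (CENP-A, the H3 of centromeres) had none. Among the regulators of histone transcription, *hip3*, *hip1* and *slm9*, all of the HIRA complex, had 5, 4 and 3 sites. *ams2*, which activates histone genes, had 2, and *teb1* and *hip4* had none. The 3 sites of *slm9*, all in its coding sequence, summed to 138 transitions in 407 reads, against 49 in 308 at *hhf2*, the histone gene with the most transitions. Among 13 histone chaperones, 10 had a site, with 5 at *spt6*, 4 at *spt16* (of the FACT complex) and 3 each at *pcf1* (of CAF-1) and *nap1*. The 9 histone genes, of 622 to 1319 nt, held 39 sites, 10 of them after the 3′ end, against 37 sites, 3 of them after a 3′ end, at the 21 listed genes of 1242 to 5668 nt.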

How the data were processed

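PAR-CLIP reads of 1 library were mapped by the authors (the submitters' processing notes name the build ASM294v2), and sites were called from T-to-C transitions. The caller and its thresholds are not given in the sources used here. The deposited table gives, per site, 2 read counts (transitions and covering reads, not normalized), a deposited p-value, at most 0.00499 and not used further, and the occupancy, a ratio formed by the authors.

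Dividing transitions by occupancy gave a whole number at all 15824 sites within 1e-06, taken as RNA-Seq coverage. All 15789 nuclear sites fall on a T of their strand in ASM294v3, so coordinates were used with its RefSeq annotation. The 34 sites labelled mitochondrial and 1 labelled MTR were left out. Motifs were searched within 25 nt on the crosslinked strand. Shares have exact Clopper-Pearson and densities exact Poisson intervals of 95%. The table holds no molecular identifiers. Ribosomal protein genes were taken by symbol and product name.

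No test was run, as there is 1 library. The members and lists were chosen with earlier results of these data known. The rule for names took all 9 members, every site of a member with 5 or fewer (otherwise the sites with the most transitions, the highest occupancy and the greatest distance after the 3′ end), annotated genes that hold a counted site, and the 5 of the list of 21 with the most sites. Other sites, overlapping genes and listed genes were named after their values were seen. Alternatives covered coverage, transitions, window length, shared and repeated sequence, motif and weights. On simulated sites in 200 genes, 400 of 400 inside the windows were recovered at their planted distance and side of the 3′ end. Outside the windows, 400 of 400 were rejected. The division of a transcript into 5′ UTR, coding sequence and 3′ UTR was not checked in this way. Tools were scipy 1.17.1, pandas 2.3.3, numpy 2.4.6 and matplotlib 3.10.9 under Python 3.11.15. RNA-Seq of Seb1 mutants and ChIP-Seq were not analysed here.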

Additional observations from a re-analysis of the deposited data

How the results depend on the processing

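The number of histone genes with a site was 8 to 9 and the number of sites 33 to 44 over the 7 alternatives for site filters and window length. The share of sites after the 3′ end ran from 17.1% to 34.1%, its highest value with a window of 500 nt, which adds the 5 distal sites of *hht1*. The share with UGUA ran from 45.7% to 54.5%, and was 56.4% when GUAG was counted as well. Each of these shares and counts stayed within the counting interval, or within 1.5-fold, of its main value. The filters for median read coverage, maximum occupancy and repeated sequence removed no histone site, so the histone values could not change under them. The counting intervals are also wide, at 13.0 to 42.1% for the share after the 3′ end. The number of all protein-coding genes with a site depended on the filter, at 1919 with at least the median read coverage and 1646 with at least 3 transitions, against 3443. *hht2* lost its only site when at least 3 transitions were required, when the window ended 100 nt after the 3′ end, or when sites inside another gene were left out. No paired analysis was possible because the PAR-CLIP library has no replicate. The depth, a median of 36 reads at histone sites, leaves wide intervals around the share of transitions at single sites.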
